A study of Drosophila melanogaster with 15 samples.

Results

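The net difference between early third-instar (L3) and early second-instar (L2) midguts of *w1118* larvae was measured by mRNA-sequencing. Early L3 midguts came from larvae 4 days after egg laying and each library pooled 10 of them, whereas early L2 midguts came from larvae 2 days after egg laying with 60 pooled per library. Both stages carried the same *w1118* genotype, a white-eyed laboratory strain, were reared on a diet of yeast alone and were collected without regard to sex, and each had 5 biological replicates. These 10 of the 15 libraries of the series were compared, and the 5 late L2 libraries (3 days, 30 midguts each) are given only as intermediate levels. The stage names early and late come from the study, while the sample labels give the day and the instar. Of 12133 entries of the deposited table, 9717 reached 0.5 CPM (read counts scaled to the total of each library) in at least 1 of the 10 libraries and were tested.

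The larval midgut is a tube of absorptive enterocytes with scattered enteroendocrine cells and progenitors, surrounded by visceral muscle. It secretes digestive enzymes, takes up sugars, amino acids and lipids, and passes lipids on to the haemolymph as lipoprotein. Pulses of ecdysone, a steroid hormone, bring about the molts between instars, and larvae gain most of their final mass during the last instar. Both stages compared here lie early in their instar, so the comparison leaves out the late L2 samples taken just before the L2 to L3 molt.

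Libraries held 27514688 to 33902298 reads in early L3 and 23981806 to 33187648 reads in early L2, so that a gene with 0 reads in a library could still be present at up to 0.0885 to 0.125 CPM, counting error alone considered. Limma was run on log2(CPM + 0.5), and rises and falls are differences of 0.5 or more on the log2 scale whose p, adjusted over all rows by Benjamini-Hochberg, lay under 0.05. For low transcripts this scale gives too small a change, and CPM are not corrected for transcript length, so levels are compared between stages and not between genes. The first principal component, with 72.4% of the variance, separated the stages, from 24.2 to 51.0 in early L3 and from -48.3 to -30.2 in early L2. Early L3 replicate 1 was the library at 24.2 and lay nearest to early L2. Of 11 enterocyte marker genes, 2 rose and 2 fell, and their summed share of reads was 1.09 to 1.25% in early L3 and 1.04 to 1.12% in early L2. These markers include *Amy-p*, *Mal-A1* and *Npc1b*, whose own changes, in both directions, are reported below. The summed share therefore does not measure enterocyte content apart from those changes. Markers of other tissues were present at both stages, and their values are given beside the related results. In such pooled tissue, fewer cells of a type and less RNA per cell cannot be told apart.

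Between early L3 and early L2, 3332 transcripts were called (34.3% of those tested), of which 960 rose (9.88%) and 2372 fell (24.4%). The values of the stages did not overlap for 4729 transcripts (48.7%). Called changes of at least 2-fold (a log2 fold change of 1) numbered 346 rises and 907 falls, and 109 rises and 186 falls reached a log2 fold change of 2. The balance depended on the scale. All transcripts together had a median log2 fold change of -0.15 on the CPM scale, which median-ratio scaling moved by 0.14 to -0.01, and 28.8% of calls rose with CPM against 43.4% (1376 rises, 1795 falls) after that scaling. All 960 rises and 1795 of the 2372 falls were called in the same direction on both scales, and 0 were called in opposite directions. Median-ratio scaling mainly shifts the log2 fold changes upward by a small amount. The kept rises and the lack of opposite calls follow from that shift and are no separate check. Because the balance depended on the scale, list counts below are given on both scales. They are to be read beside the shares over all transcripts, 9.88% rises and 24.4% falls (14.2% and 18.5% after median-ratio scaling). For the enterocyte markers the median-ratio counts were 3 rises and 2 falls.

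**Figure D1:**
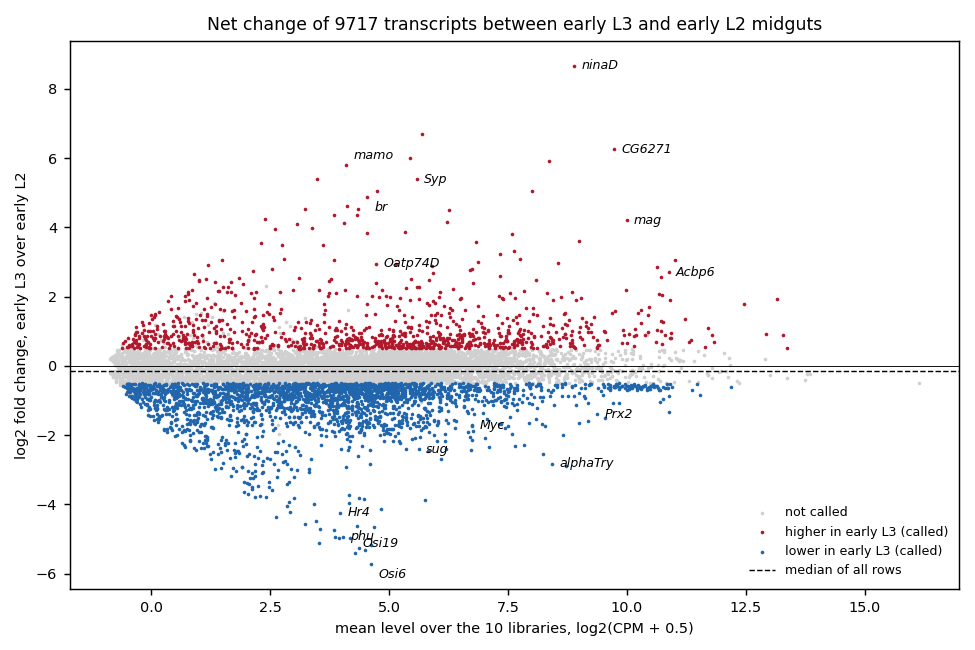
Log2 fold change of early L3 over early L2 (vertical) against the mean level over the 10 libraries as log2(CPM + 0.5) (horizontal), 1 point per transcript, with called rises in red, called falls in blue and the median of all transcripts dashed. *ninaD* stands apart at 8.67, and the Osiris genes *Osi6* and *Osi19* lie among the deepest falls.

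The 15 largest rises with a mean of at least 5 CPM and stages that did not overlap were *ninaD*, *AANATL6*, *CG6271*, *Lsp1gamma*, *CG6277*, *mamo*, *Syp*, *CG15353*, *CG34330*, *br*, *CG5162*, *CG31091*, *Tsf1*, *CG31089* and *Jhbp14*. They held lipid uptake and lipase genes, regulators of developmental timing, a transferrin, a serum storage protein and a juvenile hormone binding protein. The first, *ninaD*, encodes a class B scavenger receptor that takes up carotenoids, and lies at chr2L:18081628-18083608 (BDGP6.54). *ninaD* had 625, 927, 920.0, 1242 and 1016 CPM in early L3 libraries, against 0.759, 1.33, 2.47, 1.88 and 3.17 CPM in early L2 libraries. The stages did not overlap, and the log2 fold change was 8.67 ± 0.27 (SE, limma adjusted p = 1.84e-09). In late L2 it stood at 88.3 ± 78.8 CPM, between both. The 15 largest falls were *Osi6*, *Osi19*, *CG14147*, *CG31626*, *CG9411*, *Osi18*, *CG13049*, *phu*, *Osi9*, *Cpr64Ab*, *CG13048*, *Osi14*, *Lcp65Ag2*, *Osi7* and *Cpr65Ea*. DESeq2 did not call *CG14147* (adjusted p = 0.0743) or *CG13049* (adjusted p = 0.113). Of these 15, 6 belong to the Osiris family and 3 encode cuticle proteins of the Cpr and Lcp families.

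Gene lists for digestion, lipid handling, growth, hormone signalling, cuticle and other functions were then counted. Median changes ran from -4.61 for the Osiris family to 1.69 for fat body markers, beside -0.15 for all transcripts. All 45 ribosome biogenesis factors and all 9 Osiris genes fell. After median-ratio scaling the Osiris median was -4.49 and that of fat body markers 1.78, so both ends of the range kept their sign. Without early L3 replicate 1 the median of fat body markers was 1.27.

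**Figure D2:**
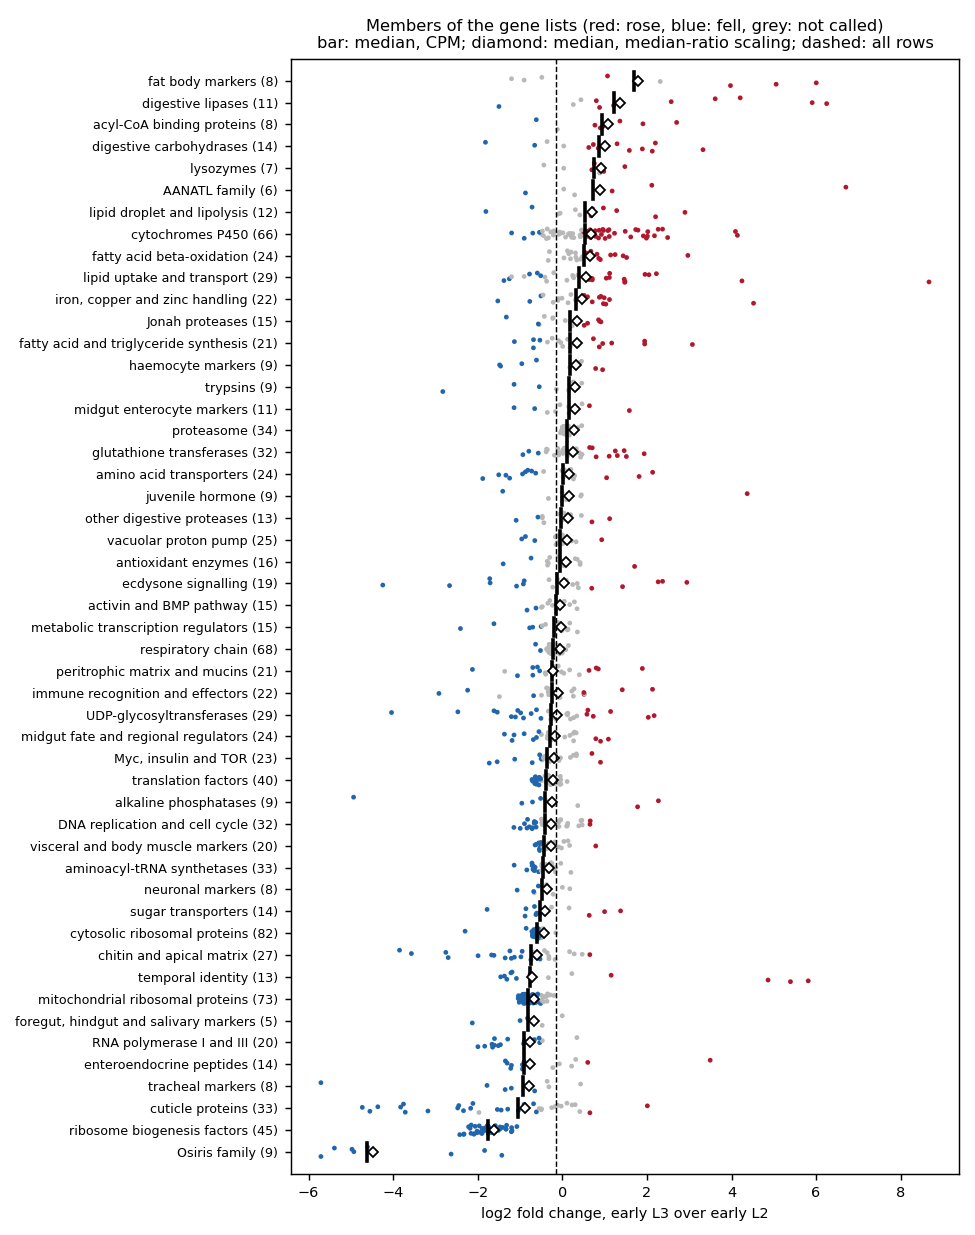
Log2 fold change of early L3 over early L2 for each member of 50 gene lists (points, red for rises, blue for falls, grey for neither), with the number of members tested in parentheses, the list median as a bar and the median after median-ratio scaling as a diamond. Osiris (-4.61) and ribosome biogenesis (-1.75) lists lie at the lower end and fat body markers (1.69) and digestive lipases (1.21) at the upper end, beside a median of -0.15 for all transcripts (dashed).

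Regulators of developmental timing were examined first. In *Drosophila* neural stem cells the RNA-binding proteins Imp and Syncrip (*Syp*) mark early and late temporal states, with *chinmo* repressed and *mamo* activated late, and *br* (Broad) specifies metamorphic fates. Of 13 timing genes tested, 4 rose and 7 fell on both scales. *Syp*, at chr3R:20756729-20810726 (BDGP6.54), was low in every early L2 library. *Syp* had 73.7, 105, 84.0, 104 and 99.7 CPM in early L3 libraries, against 1.66, 1.38, 1.57, 1.03 and 3.58 CPM in early L2 libraries. The stages were separated by more than an order of magnitude, and the log2 fold change was 5.39 ± 0.22 (SE, limma adjusted p = 1.54e-08). The zinc finger gene *mamo* was at or near 0 in early L2. *mamo* had 27.0, 31.8, 37, 34.7 and 35.3 CPM in early L3 libraries, against 0.0362, 0, 0, 0.0710 and 0.473 CPM in early L2 libraries. Here the log2 fold change was 5.81 ± 0.18 (SE, limma adjusted p = 1.84e-09). *br*, which encodes the Broad zinc finger factors, followed. *br* had 33.7, 51.5, 37.7, 58.7 and 40.0 CPM in early L3 libraries, against 1.08, 0.667, 0.723, 0.994 and 1.79 CPM in early L2 libraries. Its log2 fold change was 4.86 ± 0.20 (SE, limma adjusted p = 1.54e-08). In late L2 the same genes were at 36.4 ± 7.91 CPM (*Syp*), 14.8 ± 5.86 CPM (*mamo*) and 7.09 ± 2.50 CPM (*br*), each between both ends.

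The opposite change was smaller. *Imp* had 55.7, 45.1, 47.2, 42.1 and 43.0 CPM in early L3 libraries, against 103, 108, 91.4, 94.1 and 98.9 CPM in early L2 libraries. The stages did not overlap, and the log2 fold change was -1.09 ± 0.08 (SE, limma adjusted p = 7.79e-07). *chinmo*, which encodes a BTB zinc finger factor of early temporal states, fell to 43.3, 33.9, 40.4, 35.6 and 34.2 CPM in early L3, against 107, 109.6, 79.2, 88.6 and 86.6 CPM in early L2, and the log2 fold change was -1.31 ± 0.10 (SE, limma adjusted p = 1.17e-06). *lin-28*, the RNA-binding protein of the heterochronic pathway first known from worms, was low throughout. *lin-28* had 0.231, 0.0332, 0.0727, 0 and 0.147 CPM in early L3 libraries, against 0.940, 1.17, 1.63, 1.28 and 0.743 CPM in early L2 libraries. Its level was lower in every early L3 library than in any early L2 library, and the log2 fold change was -1.46 ± 0.17 (SE, limma adjusted p = 2.18e-05). The other falls were *abd-A* (-1.37), *ken* (-1.22), *pros* (-1.19) and *Blimp-1* (-0.76), of which *Blimp-1* was not called with pseudocounts of 1 or 4, with quantile scaling (limma adjusted p = 0.0917) or without early L2 replicate 1 (limma adjusted p = 0.05003), and *dati* rose by 1.15 on the log2 scale. *crol* had 95.1 ± 1.43 CPM in early L3 and 81.3 ± 1.93 CPM in early L2 (± is the SD with n = 5 per stage, here and below unless SE is named), a log2 fold change of 0.22 that stayed under the threshold. *Kr-h1*, the response gene of juvenile hormone, had 21.3 ± 3.05 CPM in early L3 and 27.0 ± 3.77 CPM in early L2.

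Ecdysone genes split as well. Of 19 tested, 5 rose and 7 fell (7 and 7 after median-ratio scaling), and the list's median of -0.11 changed sign to 0.04 with that scaling. Genes of hormone import, conversion and reception rose. *Oatp74D* encodes the ecdysone importer, at chr3L:17487118-17511693 (BDGP6.54). *Oatp74D* had 35.0, 55.2, 41.7, 59.5 and 41.3 CPM in early L3 libraries, against 6.18, 5.75, 5.51, 5.11 and 5.00 CPM in early L2 libraries. The early L3 libraries stood well above the narrow range of early L2, and the log2 fold change was 2.94 ± 0.13 (SE, limma adjusted p = 2.75e-08). *shd* (Shade) encodes the P450 that converts ecdysone into 20-hydroxyecdysone. *shd* had 62.3, 91.0, 72.8, 94.9 and 79.9 CPM in early L3 libraries, against 13.7, 7.76, 17.1, 23.2 and 25.2 CPM in early L2 libraries. Its log2 fold change was 2.27 ± 0.27 (SE, limma adjusted p = 2.03e-05). *Eo*, which encodes ecdysone oxidase and so a route of inactivation, rose too (log2 fold change 2.37, limma adjusted p = 4.74e-06). Of the receptor, *EcR* had 14.2, 19.7, 14.8, 23.4 and 17.3 CPM in early L3 libraries, against 12.6, 13.6, 9.49, 10.8 and 7.87 CPM in early L2 libraries, without overlap (log2 fold change 0.70, limma adjusted p = 0.00306), and its partner *usp* had 28.3 ± 2.27 CPM in early L3 and 21.7 ± 1.83 CPM in early L2, a difference of 0.38 under the threshold that passed it after median-ratio scaling. The primary response gene *Eip74EF* rose (log2 fold change 1.42, limma adjusted p = 4.79e-04), with a wide early L3 range of 4.90 to 12.8 CPM.

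Nuclear receptors of the later ecdysone response fell. *Hr4* had 3.89, 0.532, 1.45, 0.223 and 0.442 CPM in early L3 libraries, against 35.7, 48.9, 23.9, 21.9 and 14.7 CPM in early L2 libraries. Early L3 replicate 1, at 3.89 CPM, was the highest of its stage, the stages did not overlap, and the log2 fold change was -4.25 ± 0.47 (SE, limma adjusted p = 1.21e-05). *Hr3* had 1.55, 0.664, 0.254, 0.447 and 0.767 CPM in early L3 libraries, against 10.4, 12.8, 7.56, 3.41 and 4.39 CPM in early L2 libraries, again without overlap (log2 fold change -2.67, limma adjusted p = 5.18e-05). *E23*, an ecdysone-induced ABC transporter, was steady within early L3 at 8.48 to 9.97 CPM, against 21.7 to 37.2 CPM in early L2 (log2 fold change -1.72, limma adjusted p = 8.06e-07). *ftz-f1* (-0.92), *Eip78C* (-1.08), *MsrA* (-1.71) and *Cyp18a1* (-0.90), the P450 that inactivates 20-hydroxyecdysone, fell too, while *Eip75B* had 29.1 ± 4.16 CPM in early L3 and 34.0 ± 3.35 CPM in early L2. In late L2 *Hr4* was at 38.4 ± 5.78 CPM and *Oatp74D* at 6.90 ± 2.07 CPM, so that for both genes the late L2 level lay nearer to early L2 than to early L3. Of 9 juvenile hormone genes 1 rose and 1 fell (3 and 1 after median-ratio scaling). The rise with CPM was *Jhbp14*, a juvenile hormone binding protein gene by its name. *Jhbp14* had 33.9, 40.8, 36.5, 45.1 and 32.7 CPM in early L3 libraries, against 1.30, 0.125, 1.87, 1.81 and 2.90 CPM in early L2 libraries. Its log2 fold change was 4.37 ± 0.36 (SE, limma adjusted p = 1.65e-06).

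**Figure D3:**
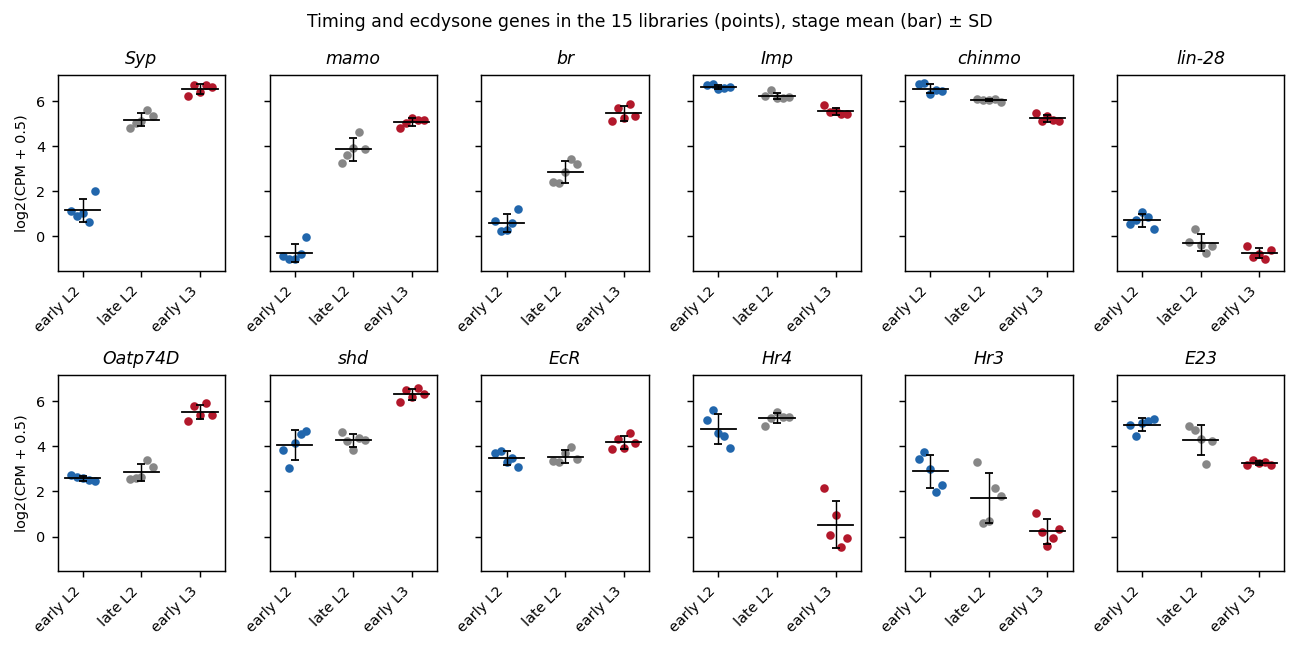
Levels of 12 timing and ecdysone genes as log2(CPM + 0.5) in the 15 libraries (points), with stage mean (bar) and SD, the stages running from early L2 through late L2 to early L3. *Syp*, *mamo* and *br* climb over the 3 stages, *Oatp74D* and *shd* are high only in the early L3 libraries, and *Hr4* is low only in the early L3 libraries.

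Genes of ribosome production were lower in early L3, while those of growth signalling were called about as often as all transcripts. Myc drives ribosome production downstream of nutrition, the insulin receptor relays circulating insulin-like peptides, and 4E-BP (*Thor*) restrains translation. *Myc* was chosen after its values were seen. *Myc* had 75.4, 34.0, 57.9, 36.1 and 50.1 CPM in early L3 libraries, against 169.8, 175, 142, 139 and 191 CPM in early L2 libraries. The stages did not overlap, and the log2 fold change was -1.73 ± 0.20 (SE, limma adjusted p = 1.51e-05). *InR* fell (log2 fold change -1.54, limma adjusted p = 5.08e-06) to 10.9 to 19.1 CPM in early L3, against 30.2 to 43.4 CPM in early L2, with early L3 replicate 1 at the top of its stage. *foxo* lay at the threshold (-0.50) and was called with neither TMM, median-ratio nor quantile scaling, nor with edgeR or DESeq2. It was also lost with pseudocounts of 1 or 4 and in several fits with 1 library left out. *Thor* had 113, 94.4, 109, 50.8 and 44.5 CPM in early L3 libraries, against 131, 133, 204, 244 and 153 CPM in early L2 libraries (log2 fold change -1.13, limma adjusted p = 0.00445). *Mnt*, which encodes the repressor that competes with Myc for Max, rose (log2 fold change 0.90, limma adjusted p = 1.41e-06). Over the 23 genes of Myc, insulin and TOR signalling, 2 rose and 6 fell (2 and 4 after median-ratio scaling), where 9.88% of all transcripts rose and 24.4% fell (14.2% and 18.5% after median-ratio scaling), and *Akt*, *S6k* and *Tsc1* were not called.

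All 45 ribosome biogenesis factors fell, on both scales, by -2.43 to -1.07 with a median of -1.75, where 24.4% of all transcripts fell. Summed, they took 0.0918 to 0.147% of reads in early L3 and 0.362 to 0.458% in early L2. *Gar1*, a protein of the box H/ACA particles that guide rRNA pseudouridylation, showed the pattern. *Gar1* had 15.7, 8.57, 14.8, 10.1 and 11.4 CPM in early L3 libraries, against 59.7, 50.1, 55.9, 50.2 and 57.9 CPM in early L2 libraries. Its log2 fold change was -2.16 ± 0.15 (SE, limma adjusted p = 5.31e-07). *mod* (Modulo), a nucleolar protein, had 174, 118, 167, 113 and 143 CPM in early L3 libraries, against 515, 397, 494, 423 and 535 CPM in early L2 libraries (log2 fold change -1.73, limma adjusted p = 1.01e-06). *Non1* (-1.68) and *Mtr4* (-1.51) fell as well. *Fib* (fibrillarin), which is outside the rule for named genes and was chosen after its value was seen, changed by -2.43. In late L2 the list stood close to early L2: its median was -0.07 for late L2 over early L2 and -1.70 for early L3 over late L2, comparisons that share the late L2 libraries.

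RNA polymerases I and III, which transcribe rRNA and tRNA, had 18 of 20 specific genes lower with limma (15 after median-ratio scaling) and 0 higher, while all 20 had an unadjusted p under 0.05. edgeR and DESeq2 each called 15 falls and 1 rise, *Maf1*, a repressor of polymerase III that was chosen after its values were seen (limma log2 fold change 0.34, not called). The second largest subunit of polymerase I, *Polr1B*, had 13.1, 8.74, 13.7, 8.20 and 10.7 CPM in early L3 libraries, against 48.7, 36.4, 45.6, 43.1 and 47.9 CPM in early L2 libraries (log2 fold change -2.0, limma adjusted p = 7.49e-07). Cytosolic ribosomal proteins fell less: 73 of 82 were called with a median of -0.59, but 12 after median-ratio scaling, when the median was -0.44. They took 6.63 to 7.66% of reads in early L3 and 10.7 to 11.1% in early L2, without overlap. *RpL3*, for example, had 2125, 1826, 2189, 1907 and 2069 CPM in early L3 libraries, against 3137, 3221, 3313, 3270.3 and 3473 CPM in early L2 libraries (log2 fold change -0.70, limma adjusted p = 2.60e-06). Mitochondrial ribosomal proteins fell in 62 of 73 cases (54 after median-ratio scaling, median -0.82 with CPM). Translation factors fell in 15 of 40 cases (3 after that scaling) and aminoacyl-tRNA synthetases in 11 of 33 (9 after it). Each of these lists held 0 rises. By comparison, 24.4% of all transcripts fell with CPM and 18.5% after median-ratio scaling. On the latter scale, cytosolic ribosomal proteins and translation factors fell less often than all transcripts. Replication genes fell in 12 of 32 cases with 2 rises (10 and 6 after median-ratio scaling), among them *Mcm6* of the replicative helicase (log2 fold change -1.15, limma adjusted p = 6.01e-07), in a tissue whose enterocytes endoreplicate.

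Other large complexes moved little. Of 68 nuclear-encoded respiratory chain subunits 2 fell (0 after median-ratio scaling and with edgeR and DESeq2), with a median of -0.21, and of 25 subunits of the proton pump 1 rose and 3 fell on both scales. The ATP synthase gene *ATPsynC* had 3035 ± 207 CPM in early L3 and 3665 ± 181 CPM in early L2, a log2 fold change of -0.27. Of 34 proteasome subunits limma called 0, although 21 had an unadjusted p under 0.05, and both edgeR and DESeq2 called 1 rise. The median of these subunits was 0.12. *Rpn1* had 178 ± 3.58 CPM in early L3 and 151 ± 3.34 CPM in early L2, a log2 fold change of 0.23. Of 15 metabolic transcription regulators 0 rose and 5 fell (1 and 4 after median-ratio scaling). With CPM 33.3% of them were called, near the 34.3% of all transcripts. Among the falls *sug*, a Gli-like factor of sugar sensing, had 15.6, 12.3, 14.9, 18.1 and 14.7 CPM in early L3 libraries, against 90.4, 91.2, 78.3, 74.7 and 76.8 CPM in early L2 libraries (log2 fold change -2.41, limma adjusted p = 1.52e-08), and *srl*, the fly PGC-1 homologue, had 33.3, 21.8, 34.5, 19.9 and 27.2 CPM in early L3 libraries, against 90.9, 71.4, 81.3, 74.2 and 101 CPM in early L2 libraries (log2 fold change -1.62, limma adjusted p = 4.49e-06).

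Digestive enzyme genes were taken from the list compiled in the study, so that their direction is no independent evidence. Lipases rose most. Of 11, 8 rose and 1 fell (9 and 1 after median-ratio scaling), with a median of 1.21, and the list took 1.37 to 1.80% of reads in early L3 and 0.536 to 0.627% in early L2. *CG6271* and *CG6277* lie side by side, at chr3R:27024968-27026109 (BDGP6.54) and chr3R:27022071-27023217 (BDGP6.54). *CG6271* had 1961, 2159.7, 1154, 1686 and 1379 CPM in early L3 libraries, against 8.21, 14.6, 65.7, 19.8 and 24.8 CPM in early L2 libraries. Early L2 replicate 3, at 65.7 CPM, stood above the others of its stage, and the log2 fold change was 6.25 ± 0.43 (SE, limma adjusted p = 6.01e-07). *CG6277* had 472, 844, 489, 751 and 678 CPM in early L3 libraries, against 6.98, 9.38, 13.7, 11.9 and 9.32 CPM in early L2 libraries (log2 fold change 5.91, limma adjusted p = 3.45e-09). *mag* (Magro), a secreted gut lipase that acts on triglyceride and cholesterol ester, had 1231, 2260.0, 1544, 2455 and 2196 CPM in early L3 libraries, against 105, 87.6, 102, 124 and 90.9 CPM in early L2 libraries. There the log2 fold change was 4.21 ± 0.18 (SE, limma adjusted p = 1.92e-08). *CG15534* was the 1 member that fell (29.1 ± 6.91 CPM in early L3 and 81.5 ± 7.59 CPM in early L2).

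Carbohydrases rose in 9 of 14 cases and fell in 2 (10 and 2 after median-ratio scaling). Over all transcripts 9.88% rose and 24.4% fell (14.2% and 18.5% after that scaling). *Amyrel*, an amylase relative, had 278, 371, 443, 377 and 315 CPM in early L3 libraries, against 27.9, 27.3, 37.2, 43.4 and 40.7 CPM in early L2 libraries (log2 fold change 3.33, limma adjusted p = 2.95e-08). The maltases went both ways: *Mal-A4* had 1265, 1678, 1762, 1982 and 1635 CPM in early L3 libraries, against 323, 336, 359.6, 454 and 333 CPM in early L2 libraries (log2 fold change 2.20, limma adjusted p = 1.16e-07), whereas *Mal-A1* had 939, 1024, 1234, 1212 and 1181 CPM in early L3 libraries, against 1501, 2021, 1745, 1744 and 1779 CPM in early L2 libraries (log2 fold change -0.65, limma adjusted p = 9.77e-05). The alpha-amylase gene *Amy-p* rose (log2 fold change 1.58, limma adjusted p = 3.11e-06), but it is a near-identical copy of *Amy-d* and reads could have been split between them. Among 9 trypsins limma called 0 rises and 3 falls, while 7 had an unadjusted p under 0.05 and edgeR and DESeq2 each called 2 rises and 2 falls. The limma calls were 33.3% of the trypsins, near the 34.3% called of all transcripts. Of the falls *alphaTry* was the largest. *alphaTry* had 116, 95.4, 76.7, 69.6 and 68.0 CPM in early L3 libraries, against 465, 660.4, 635, 582 and 654 CPM in early L2 libraries. The stages did not overlap, and the log2 fold change was -2.83 ± 0.15 (SE, limma adjusted p = 8.56e-08). Of 15 Jonah serine proteases 5 rose and 2 fell (5 and 1 after median-ratio scaling). *Jon99Fi* was among the falls, with 1031, 1229, 1009, 1089 and 1008 CPM in early L3 libraries, against 2895, 2906, 2413, 2886 and 2365 CPM in early L2 libraries (log2 fold change -1.32, limma adjusted p = 2.98e-07), and it has a close copy in *Jon99Fii*. The family's share of reads was 7.08 ± 0.77% in early L3 and 6.74 ± 0.587% in early L2 (SD, n = 5 each).

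Transcripts of lipid handling were higher in early L3 at several steps. Of 29 uptake and transport genes 14 rose and 5 fell (16 and 4 after median-ratio scaling), and their share of reads was 0.588 to 0.771% in early L3 and 0.207 to 0.234% in early L2. Besides *ninaD*, another CD36-like gene, *Snmp1*, had a trace in early L2: it had 7.89 to 11.8 CPM in early L3 and 0 to 0.0417 CPM in early L2. *Fatp1*, a fatty acid transport protein, had 754, 865, 799, 889.5 and 869.7 CPM in early L3 libraries, against 175, 222, 208, 217 and 259.7 CPM in early L2 libraries (log2 fold change 1.95, limma adjusted p = 3.21e-08). The cytosolic fatty acid binding protein gene *fabp* had 2208, 3013, 2840.4, 3007 and 2791 CPM in early L3 libraries, against 637, 695, 687, 659 and 654 CPM in early L2 libraries (log2 fold change 2.05, limma adjusted p = 1.52e-08). Sterol carriers of the Npc1 and Npc2 families were mixed, with *Npc2a* at 1.46, *Npc2d* at 1.04 and *Npc1b* at 0.64 among the rises and *Npc2b* at -1.25 among the falls. The lipoprotein genes *apolpp* and *Mtp* were not called, though *Mtp* was after median-ratio scaling: *apolpp*, with a log2 fold change of -1.20, had 18.1 ± 21.4 CPM in early L3 and 20.9 ± 13 CPM in early L2.

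Acyl-CoA binding proteins, which carry activated fatty acids in the cytosol, rose in 6 of 8 cases on both scales (1 and 0 fell) and took 0.974 to 1.22% of reads in early L3 and 0.386 to 0.427% in early L2. *Acbp6* had 3259, 3782, 2893, 3526 and 2908 CPM in early L3 libraries, against 424, 493, 538, 516 and 536 CPM in early L2 libraries. The early L3 libraries lay far above early L2, and the log2 fold change was 2.7 ± 0.09 (SE, limma adjusted p = 3.70e-09). Genes of fatty acid and triglyceride synthesis went both ways. *mino*, the mitochondrial glycerol-3-phosphate acyltransferase gene, had 241, 385, 419, 486 and 389 CPM in early L3 libraries, against 45.1, 31.9, 42.9, 44.0 and 60.5 CPM in early L2 libraries (log2 fold change 3.08, limma adjusted p = 2.85e-07), and *Dgat2*, which makes triglyceride, had 69.6, 74.8, 80.1, 90.2 and 74.9 CPM in early L3 libraries, against 19.996, 20.8, 19.9, 14.8 and 24.8 CPM in early L2 libraries (log2 fold change 1.95, limma adjusted p = 2.36e-07). The other DGAT gene, *mdy*, fell (-1.13), and so did *ACC* (-0.68), the committed step of fatty acid synthesis, while *FASN1* had 2353 ± 250.2 CPM in early L3 and 2082 ± 305 CPM in early L2 and was not called. Over that list of 21 genes, 7 rose and 4 fell (9 and 3 after median-ratio scaling).

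Genes of lipid droplets, lipolysis and beta-oxidation rose more often than all transcripts, of which 9.88% rose (14.2% after median-ratio scaling). Among 12 droplet and lipolysis genes 6 rose and 2 fell (7 and 2 after median-ratio scaling), and the lipase gene *Lip3* had 145, 99.0, 95.8, 98.9 and 85.0 CPM in early L3 libraries, against 11.4, 10.1, 16.2, 15.9 and 14.3 CPM in early L2 libraries (log2 fold change 2.90, limma adjusted p = 1.06e-07), with early L3 replicate 1 above the rest. Of 24 beta-oxidation genes 12 rose and 0 fell (14 and 0 after median-ratio scaling), with a median of 0.50. *CG3902*, annotated as an acyl-CoA dehydrogenase, had 1044, 1221, 1149, 1319 and 1405 CPM in early L3 libraries, against 437, 438, 414, 377 and 468 CPM in early L2 libraries (log2 fold change 1.52, limma adjusted p = 1.16e-07). *whd*, the carnitine palmitoyltransferase of the mitochondrial outer membrane, was not called (51.3 ± 7.87 CPM in early L3 and 65.0 ± 11.5 CPM in early L2). Fat body markers differed in direction among themselves. Of 8, limma called 4 rises and 0 falls, and 5 had an unadjusted p under 0.05. With edgeR and DESeq2, 5 rises and 1 fall were called by each. Without early L3 replicate 1, limma called 4 rises and 1 fall, and the median was 1.27 in place of 1.69. Their summed share was 0.00821 to 0.0358% of reads in early L3 and 0.00259 to 0.00651% in early L2. *Lsp1gamma*, a larval serum protein gene of the fat body, had 108, 119.7, 54.0, 97.5 and 45 CPM in early L3 libraries, against 0.289, 0.25, 1.33, 0.746 and 1.65 CPM in early L2 libraries (log2 fold change 6.0, limma adjusted p = 1.96e-07). *Lsp1beta* had 79.7, 113, 4.40, 65.9 and 0 CPM in early L3 libraries, against 0.0362, 0.0417, 0, 0 and 0 CPM in early L2 libraries, so that the early L3 libraries spread from 0 to 113 CPM and the stages overlapped. Also in this list, *apolpp* (above) and *Apoltp* (-0.90, chosen after its value was seen) had negative log2 fold changes and were not called. The part of fat body RNA in the lipid lists was not tested.

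**Figure D4:**
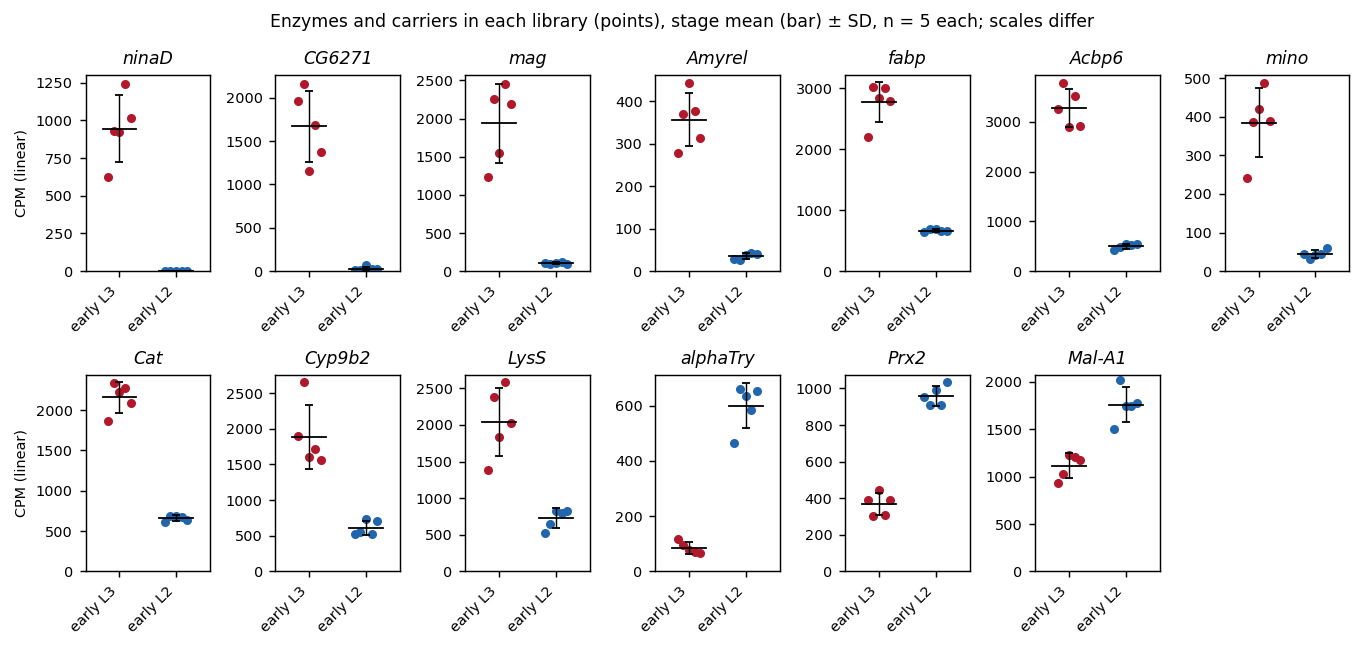
CPM of 13 enzyme and carrier genes in each early L3 (left, red) and early L2 (right, blue) library, with stage mean (bar) and SD, n = 5 each, on a linear axis from 0 whose range differs between panels. For the first 10 genes every early L3 library lies above every early L2 library, and for *alphaTry*, *Prx2* and *Mal-A1* every early L3 library lies below.

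The families of cytochromes P450, glutathione transferases and UDP-glycosyltransferases differed in their counts. Of 66 cytochromes P450, 33 rose and 4 fell (38 and 2 after median-ratio scaling), beside 9.88% of all transcripts that rose. *Cyp6t1* was low in early L2. *Cyp6t1* had 24.8, 38.1, 22.4, 43.0 and 26.3 CPM in early L3 libraries, against 1.16, 1.58, 1.30, 1.10 and 1.05 CPM in early L2 libraries. Its log2 fold change was 4.14 ± 0.17 (SE, limma adjusted p = 1.92e-08). *Cyp316a1* rose likewise (log2 fold change 4.09, limma adjusted p = 1.84e-09), and *Cyp9b2* had 1895, 2649, 1606, 1724 and 1560.0 CPM in early L3 libraries, against 523, 559.6, 729.6, 528 and 706 CPM in early L2 libraries (log2 fold change 1.62, limma adjusted p = 3.47e-06). Glutathione transferases rose in 9 of 32 cases and fell in 3 (12 and 2 after median-ratio scaling), with *GstT3* (log2 fold change 1.93, limma adjusted p = 6.08e-08) among the rises and *GstS1* (-0.93) among the falls. UDP-glycosyltransferases, which conjugate lipophilic compounds to sugars, had 6 rises and 12 falls of 29 (6 and 11 after median-ratio scaling), which is 20.7% and 41.4% of the family. Their summed share was higher, at 0.213 to 0.262% of reads in early L3 and 0.191 to 0.199% in early L2, without overlap. *Ugt302C1* had 413 ± 48.5 CPM in early L3 and 186 ± 8.87 CPM in early L2 (log2 fold change 1.14, limma adjusted p = 6.01e-07). *Ugt35E2* had 0.495, 0.166, 0.400, 0.191 and 0.383 CPM in early L3 libraries, against 15.8, 15.8, 11.2, 13.8 and 9.35 CPM in early L2 libraries (log2 fold change -4.04, limma adjusted p = 1.80e-08).

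Metal handling genes rose in 10 of 22 cases and fell in 3 (10 and 2 after median-ratio scaling). *Tsf1*, the secreted iron carrier transferrin, had 7.99, 18.9, 11.3, 29.6 and 20.4 CPM in early L3 libraries, against 0.217, 0.292, 0.542, 0.107 and 0.0338 CPM in early L2 libraries (log2 fold change 4.52, limma adjusted p = 6.35e-07). Ferritin stores iron in the gut, and its heavy chain gene *Fer1HCH* had 1849, 2754, 1821, 2156 and 2062 CPM in early L3 libraries, against 982, 1061, 1045, 966 and 1108 CPM in early L2 libraries (log2 fold change 1.03, limma adjusted p = 5.76e-06). Of 16 antioxidant enzymes 1 rose and 2 fell (4 and 2 after median-ratio scaling). Catalase, which breaks down hydrogen peroxide, rose. *Cat* had 1861, 2342, 2229, 2277 and 2092 CPM in early L3 libraries, against 608, 684, 691, 677 and 637 CPM in early L2 libraries. For *Cat*, the log2 fold change was 1.71 ± 0.07 (SE, limma adjusted p = 1.52e-08). The peroxiredoxin gene *Prx2* went the other way, with 392, 302, 445, 308 and 391 CPM in early L3 libraries, against 953, 911, 992, 909 and 1037 CPM in early L2 libraries (log2 fold change -1.40, limma adjusted p = 8.06e-07), and *Trx2* fell (-0.74). Among the 13 others of the list, *Sod1* had 279.6 ± 14.9 CPM in early L3 and 273 ± 10.2 CPM in early L2.

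Of 14 sugar transporters 3 rose and 8 fell (3 and 4 after median-ratio scaling), where 9.88% of all transcripts rose and 24.4% fell. Their summed share was nevertheless higher, at 0.123 to 0.144% of reads in early L3 and 0.0973 to 0.108% in early L2, without overlap. *CG1208* and *CG1213*, close to each other on chromosome arm 3R, moved in opposite directions: *CG1208* had 485, 448, 454, 556 and 466 CPM in early L3 libraries, against 182, 168, 171, 189 and 218 CPM in early L2 libraries (log2 fold change 1.38, limma adjusted p = 1.79e-07) and *CG1213* had 102, 51.0, 86.0, 71.5 and 84.3 CPM in early L3 libraries, against 292, 298, 247, 256 and 240.4 CPM in early L2 libraries (log2 fold change -1.78, limma adjusted p = 2.29e-06). Of 24 amino acid transporters 3 rose and 9 fell on both scales, and *mnd* (Minidiscs), a leucine transporter, had 7.82, 4.75, 5.20, 4.24 and 5.37 CPM in early L3 libraries, against 22.3, 18.9, 20.9, 18.9 and 25.1 CPM in early L2 libraries (log2 fold change -1.88, limma adjusted p = 9.28e-07). *JhI-21* (-1.25), *CG5535* (-1.33) and *CG1607* (-0.87) fell with it. The median of the amino acid transporters was 0.02 and their largest rise 2.13. Their summed share overlapped, at 0.196 to 0.221% of reads in early L3 and 0.184 to 0.208% in early L2.

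Cuticle genes were among the deepest falls. Osiris proteins are membrane proteins of epithelia that lay down cuticle, and the 9 tested genes lie on chromosome arm 3R between 6198811 and 6337196 (BDGP6.54), all on the same strand. All 9 fell, by -5.71 to -1.43. *Osi6* had 2.11, 0, 0, 0.0319 and 0 CPM in early L3 libraries, against 37.9, 96.2, 75.1, 18.6 and 12.2 CPM in early L2 libraries. Of early L3 libraries, replicate 1 alone held more than a trace, and the log2 fold change was -5.71 ± 0.62 (SE, limma adjusted p = 1.08e-05). *Osi19* had 3.83, 0, 0, 0 and 0 CPM in early L3 libraries, against 53.8, 47.7, 45.7, 29.9 and 9.05 CPM in early L2 libraries (log2 fold change -5.39, limma adjusted p = 2.56e-05), again with replicate 1 apart. *Osi14* was low in all early L3 libraries alike, with 1.02, 0.565, 0.545, 0.957 and 1.30 CPM in early L3 libraries, against 32.1, 76.6, 44.7, 25.0 and 12.7 CPM in early L2 libraries (log2 fold change -4.61, limma adjusted p = 1.73e-06). The family took 0.000116 to 0.00211% of reads in early L3 and 0.00543 to 0.0352% in early L2. Without early L3 replicate 1 the 9 genes remained called, with a median of -4.91. Late L2 libraries held 0.0145 to 0.0432%, so the range of early L2 lay partly within that of late L2.

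Structural cuticle proteins fell in 19 of 33 cases and rose in 2 (18 and 2 after median-ratio scaling), and the rises were *Cpr78Ca* (2.01) and *Edg91* (0.65). *Cpr65Ea* had 0, 0, 0.0363, 0.0638 and 0 CPM in early L3 libraries, against 16.4, 17.8, 9.28, 8.56 and 4.59 CPM in early L2 libraries, without overlap. *Lcp65Ag2*, which has a close copy in *Lcp65Ag1*, had 0.627, 0.0332, 0.0363, 0.574 and 0.0295 CPM in early L3 libraries, against 26.1, 25.3, 14.6, 12.8 and 8.98 CPM in early L2 libraries (log2 fold change -4.55, limma adjusted p = 7.91e-07). Genes of chitin and apical matrix fell in 17 of 27 cases and rose in 1 (14 and 2 after median-ratio scaling), with the chitin deacetylase gene *verm* at 8.75, 7.31, 7.74, 10.0 and 10.4 CPM in early L3 libraries, against 29.2, 29.6, 29.1, 17.2 and 15.3 CPM in early L2 libraries (log2 fold change -1.35, limma adjusted p = 9.99e-05). Tracheal markers share *Osi6* and *verm* with these lists, so their counts and summed share are no independent comparison. Of 8, which include *Osi6* and *verm*, 5 fell and 0 rose with CPM (4 and 1 after median-ratio scaling and with edgeR and DESeq2), their summed share was 0.00416 to 0.00635% of reads in early L3 and 0.00790 to 0.0211% in early L2, and the defining genes *trh* (2.7 ± 1.01 CPM in early L3 and 4.51 ± 1.33 CPM in early L2) and *btl* (4.87 ± 0.825 CPM in early L3 and 3.53 ± 0.941 CPM in early L2) were above 0 at both stages. Of 5 foregut, hindgut and salivary markers 3 fell on both scales, with 0.0117 to 0.0141% of reads in early L3 and 0.0173 to 0.0196% in early L2. The part of tracheal and foregut RNA in the cuticle lists was not tested. Chitin-binding proteins and mucins of the peritrophic matrix, which lines the midgut itself, rose in 4 and fell in 6 of 21 cases with CPM, but rose in 5 and fell in 4 after median-ratio scaling and with edgeR and DESeq2. Their summed share was 1.6 to 1.75% of reads in early L3 and 1.30 to 1.55% in early L2, without overlap.

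**Figure D5:**
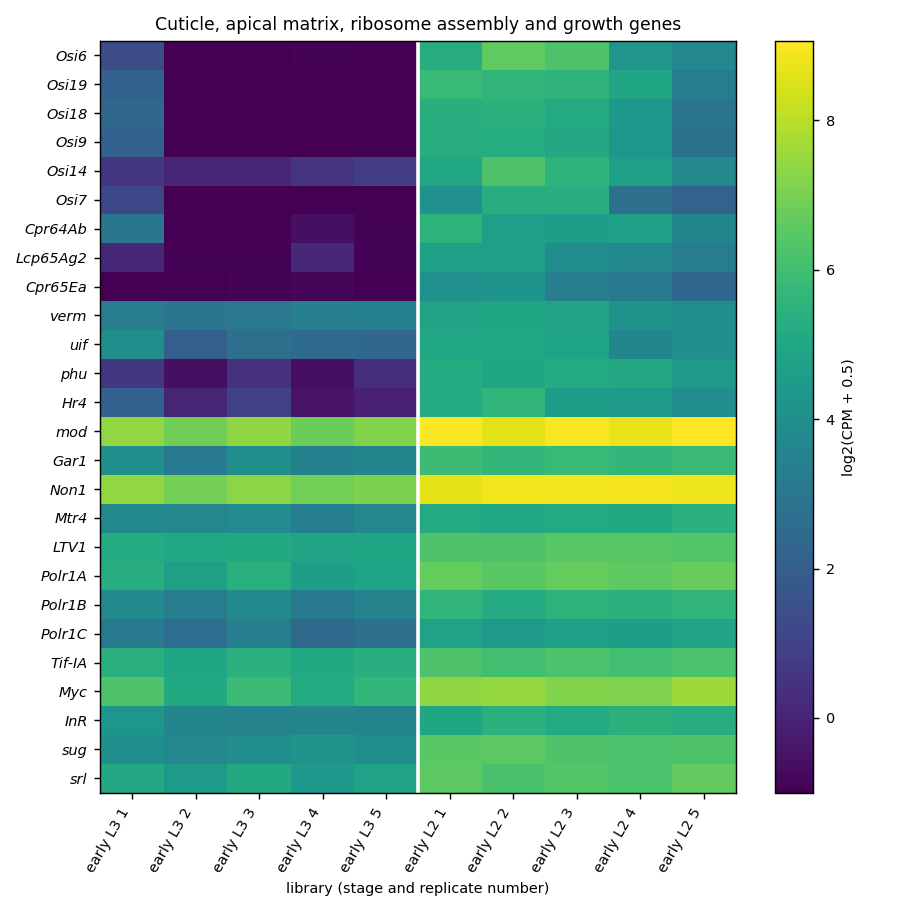
Levels as log2(CPM + 0.5) (colour) of 26 cuticle, apical matrix, ribosome assembly and growth genes (rows) in the 5 early L3 libraries (left) and 5 early L2 libraries (right). Early L3 replicate 1 holds traces of Osiris transcripts that other early L3 libraries lack, such as 3.83 CPM of *Osi19* against 0, while ribosome assembly genes are lower in all 5 early L3 libraries.

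Peptide hormone genes fell more often than all transcripts. Of 14 peptide hormone genes 2 rose and 8 fell on both scales, and edgeR and DESeq2 each called 3 rises and 7 falls. Over all transcripts 9.88% rose and 24.4% fell (14.2% and 18.5% after median-ratio scaling). *Dh31* had 18.4, 16.7, 16.4, 16.1 and 20.6 CPM in early L3 libraries, against 45.1, 45, 39.9, 40.3 and 36.0 CPM in early L2 libraries (log2 fold change -1.20, limma adjusted p = 6.64e-07), *Tk* (tachykinin) had 10.6, 9.67, 11.2, 11.1 and 11.2 CPM in early L3 libraries, against 24.2, 20.8, 21.3, 21.8 and 17.9 CPM in early L2 libraries (log2 fold change -0.94, limma adjusted p = 1.99e-06), and *Orcokinin* (-1.31), *NPF* (-1.22) and *AstC* (-0.93) fell as well. *CCHa2* was not called, with 55.1 ± 3.41 CPM in early L3 and 58.3 ± 8.86 CPM in early L2. *pros*, the factor that marks enteroendocrine cells, had 4.22, 5.78, 3.93, 3.76 and 2.92 CPM in early L3 libraries, against 10.7, 11.7, 9.31, 9.38 and 8.44 CPM in early L2 libraries (log2 fold change -1.19, limma adjusted p = 2.94e-05). *Nplp4* went against this, with 16.8, 22.6, 18.3, 26.3 and 24.3 CPM in early L3 libraries, against 1.95, 0.125, 1.69, 1.46 and 3.65 CPM in early L2 libraries (log2 fold change 3.50, limma adjusted p = 1.45e-05), and was chosen after its values were seen. Neuronal markers, of which 3 of 8 fell and 0 rose (1 fell without early L3 replicate 1 and after median-ratio scaling) took 0.00557 to 0.00859% of reads in early L3 and 0.00614 to 0.00713% in early L2, so that their summed level overlapped.

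Of 24 fate and regional regulators 3 rose and 7 fell (3 and 5 after median-ratio scaling), and 14 were not called. These counts lay near the shares over all transcripts, of which 9.88% rose and 24.4% fell (14.2% and 18.5% after that scaling). The Hox gene *abd-A*, which patterns the posterior midgut, had 4.75, 4.45, 4.76, 4.47 and 3.51 CPM in early L3 libraries, against 18.4, 7.55, 13.4, 9.98 and 13.6 CPM in early L2 libraries (log2 fold change -1.37, limma adjusted p = 8.60e-05). The rises were *esg*, *Sox21a* and *Sox100B*, factors of midgut progenitors. They were chosen after their values were seen, and *Sox21a* had 2.08, 3.55, 1.74, 1.82 and 1.89 CPM in early L3 libraries, against 0.795, 0.584, 0.723, 0.675 and 0.979 CPM in early L2 libraries (log2 fold change 1.09, limma adjusted p = 1.71e-04). The gut GATA factor *GATAe* had 126 ± 9.11 CPM in early L3 and 140.5 ± 2.36 CPM in early L2 and was not called. Visceral muscle, which surrounds the gut, was examined as a further component. Of 20 muscle markers 8 fell and 1 rose, but 0 fell and 1 rose after median-ratio scaling, and their share was 0.695 to 0.797% of reads in early L3 and 0.796 to 1.14% in early L2. The rise was the actin gene *Act87E* (log2 fold change 0.79, limma adjusted p = 3.03e-04).

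Of 22 immune genes 4 rose and 3 fell on both scales, a share of 31.8% called beside 34.3% of all transcripts. Lysozymes, which digest bacterial walls in the gut lumen, rose in 4 of 7 cases (5 after median-ratio scaling) and took 0.479 to 1.29% of reads in early L3 and 0.450 to 0.556% in early L2, so that the summed level overlapped between the stages. *LysS* had 1390.4, 2376, 1836, 2582 and 2024 CPM in early L3 libraries, against 531, 647, 831, 799.6 and 826 CPM in early L2 libraries (log2 fold change 1.48, limma adjusted p = 1.94e-05), though *LysB*, *LysC*, *LysD* and *LysE* are near-identical and cannot be counted apart with certainty. The drosomycin-like genes went both ways. *Drsl3* had 1.62 ± 0.588 CPM in early L3 and 0.279 ± 0.0968 CPM in early L2 (log2 fold change 1.42, limma adjusted p = 3.55e-05) and *Drsl5* had 2.33 ± 1.75 CPM in early L3 and 0.0667 ± 0.0517 CPM in early L2 (log2 fold change 2.13, limma adjusted p = 1.49e-04), whereas *Drsl2* had 0 to 0.0590 CPM in early L3 and 0.868 to 2.89 CPM in early L2 (log2 fold change -2.24, limma adjusted p = 5.18e-06). The amidase gene *PGRP-SC1a*, chosen after its values were seen, had 2.01, 0.465, 1.45, 13 and 7.79 CPM in early L3 libraries, against 29.6, 42.5, 37.2, 14.9 and 17.0 CPM in early L2 libraries (log2 fold change -2.92, limma adjusted p = 0.00189), and it too has a near-identical copy, *PGRP-SC1b*. Of 9 haemocyte markers 2 rose and 4 fell in limma (median 0.18), but 4 rose and 3 fell with edgeR and DESeq2. With a filter of 1 CPM in 5 libraries, 5 were tested, 0 rose and 4 fell, and the median was -0.96. They took 0.0124 to 0.0171% of reads in early L3 and 0.0258 to 0.0332% in early L2, without overlap. The share of the immune genes overlapped, at 0.0379 to 0.0742% in early L3 and 0.0420 to 0.0523% in early L2. The part of haemocyte RNA in the immune genes was not tested. Of the 6 arylalkylamine N-acetyltransferase-like genes 3 rose and 1 fell on both scales. *AANATL6* and *AANATL4* are neighbours, at chr2R:19287983-19288995 (BDGP6.54) and chr2R:19289109-19289852 (BDGP6.54). *AANATL6* had 46.4, 117, 82.1, 162 and 99.8 CPM in early L3 libraries, against 0.217, 0.208, 0.542, 0.462 and 0.675 CPM in early L2 libraries. Its log2 fold change was 6.70 ± 0.28 (SE, limma adjusted p = 1.92e-08), beside 2.12 for *AANATL4*. The alkaline phosphatase gene *phu* was nearly lost from early L3, with 0.990, 0.166, 0.836, 0.159 and 0.737 CPM in early L3 libraries, against 36.1, 30.1, 36.0, 33.6 and 20.4 CPM in early L2 libraries (log2 fold change -4.94, limma adjusted p = 7.13e-08), and was already at 3.95 ± 3.26 CPM in late L2.

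Transposable elements were listed singly by insertion. Of 292 tested, 46 rose and 19 fell (57 and 14 after median-ratio scaling), where 9.88% and 24.4% of all transcripts did so, and their median was 0.07. The insertion McClintock{}RR48349 fell (log2 fold change -1.72, limma adjusted p = 3.19e-06). Insertions of 1 family share sequence, so reads can be split between copies. Of 211 noncoding RNA genes 25 rose and 37 fell with CPM, but 34 rose and 26 fell after median-ratio scaling, so that their balance turned with the scale. Over all transcripts 9.88% rose and 24.4% fell with CPM.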

How the data were processed

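mRNA of pooled midguts was sequenced from a stranded polyA library kit, and the authors deposited 1 table of CPM per transcript for 15 libraries. Per the submitters' processing notes, Trim Galore 0.6.7, STAR 2.7.10a and Salmon 1.5.2 were used with build BDGP6. The deposited CPM were whole multiples of 1 read in 100% of values above 0 (tolerance 0.001 of a read), so reads and depths were recovered from them. The table of the authors' own comparisons holds fold changes and p-values and was not used. Gene symbols and positions come from the Ensembl 115 annotation of BDGP6.54, which matched 12094 identifiers.

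Rows with at least 0.5 CPM in at least 1 of the 10 libraries entered limma 3.58.1 (R 4.3.3) with a mean-dependent trend on log2(CPM + 0.5), with Benjamini-Hochberg adjustment over all 9717 rows. The filter keeps rows that are high at 1 stage alone. The labels do not tie replicate numbers across stages, and correlations of same-numbered deviations (-0.04 to 0.18) did not pair them. Alternatives were other pseudocounts, filters and fold limits, median-ratio, TMM and quantile scaling, a replicate block, leaving out each library, edgeR 4.0.16 and DESeq2 1.42.0 on the recovered reads.

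Named genes were the 15 largest rises and 15 largest falls among called rows with a mean of at least 5 CPM and stages without overlap, the 4 members of each list with the smallest adjusted p and the 2 with the highest mean CPM, all members of the timing and ecdysone lists, and the 2 transposable elements with the smallest adjusted p in each direction. The genes *Myc*, *Nplp4*, *Sox21a*, *PGRP-SC1a*, *esg*, *Sox100B*, *Fib*, *CG15534*, *apolpp*, *Mtp*, *whd*, *ACC*, *Npc2a*, *Npc2b*, *Npc2d*, *Sod1*, *Edg91*, *AstC*, *Akt*, *S6k*, *Tsc1*, *Apoltp*, *Maf1*, *trh* and *btl* were chosen after their values were seen. The members and lists were chosen with earlier results of these data known. Counting intervals cover counting error only, and p-values measure the spread between pooled samples.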

Additional observations from a re-analysis of the deposited data

Results flagged for a closer look

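In groups of 5 libraries, 16 of 200 tested sets of values had 1 library far from the other 4 by Dixon's ratio. Chance would give about 10 for independent sets of normally spread values. The sets were not independent, as the Osiris family share contains *Osi6* and *Osi19*, which were also tested singly. Of the 16 sets, 8 were early L3 replicate 1. In that library *Osi6* had 2.11 CPM (0 to 0.0319 CPM in the other 4), *Osi19* 3.83 CPM (0 in the others), *uif* 15.4 CPM (3.69 to 6.11 CPM), *InR* 19.1 CPM (10.9 to 11.8 CPM), *Lip3* 145 CPM (85.0 to 99.0 CPM), *fabp* 2208 CPM (2791 to 3013 CPM) and McClintock{}RR48349 0.858 CPM (0.291 to 0.413 CPM). The Osiris family took 0.00211% of its reads, against 0.000116 to 0.000206% in the other 4.

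Among the other early L3 libraries, *Sox21a* stood apart in replicate 2 at 3.55 CPM (1.74 to 2.08 CPM) and *abd-A* in replicate 5 at 3.51 CPM (4.45 to 4.76 CPM). In early L2, replicate 5 stood apart for *mamo* (0.473 CPM, others 0 to 0.0710 CPM) and *Syp* (3.58 CPM, others 1.03 to 1.66 CPM), replicate 3 for *CG6271* (65.7 CPM, others 8.21 to 24.8 CPM) and replicate 4 for *Amy-p* (579.5 CPM, others 369 to 410.0 CPM) and *Mal-A4* (454 CPM, others 323 to 360 CPM). Foregut, hindgut and salivary markers took 0.0196% of reads in early L2 replicate 1 and 0.0173 to 0.0176% in the other 4.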

How the results depend on the processing

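Among the counts of called transcripts (3332, of which 960 rose and 2372 fell), those that moved by more than 1.5 times were 2221 calls and 1544 falls with a pseudocount of 4, 1513 rises with quantile scaling, 1458 rises with edgeR and 1471 rises with DESeq2. With no minimum fold the counts were 6145 (2077 rises, 4068 falls), and with a minimum log2 fold change of 1 they were 1253 (346 rises, 907 falls). TMM scaling gave 1373 rises and 1795 falls. Leaving out 1 library at a time gave 3183 to 3438 calls, 901 to 997 rises and 2271 to 2462 falls. The cause of these shifts was not tested.

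With the replicate number as a block 3339 transcripts were called, 966 rises and 2373 falls, and the replicate numbers were not used as pairs. Of 305 named genes 230 were called, 192 of these in every alternative except the fold limits, and 0 reversed. Under median-ratio scaling 5 of 50 list medians changed sign. Without early L3 replicate 1, 22 cuticle genes fell in place of 19. Low transcripts are limited by depth.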
